A study of Mus musculus with 16 samples.

Results

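Autophagy machinery genes are described here in cortical microglia, the resident macrophages of the brain, from male and female mice fed the CSF1R inhibitor PLX3397 or control chow. The set holds 40 genes, chosen by name for their roles in initiation, membrane supply, conjugation, cargo recognition and fusion. The choice was made with earlier results of these data known. All 40 were matched by Ensembl identifier among the 53850 rows of the table, and all 40 passed the filter on low values that left 19594 genes for testing. The mice were C57BL/6J, and there were 4 groups of 4 libraries: males on control chow, males on PLX3397, females on control chow and females on PLX3397. All groups share the strain, the cortex, the sort by fluorescence-activated cell sorting and 1 week on chow. Age in days, the sorting gate and the number of animals behind each library are not given in the sources used here, so p-values measure the spread between these samples, which may be technical. The series asks why depletion of microglia by PLX3397 differs between the sexes. The cells sequenced are those that remained after the treatment.

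Autophagy encloses cytoplasm in a double membrane, the autophagosome, and delivers it to the lysosome. The ULK kinase complex and the class III phosphatidylinositol 3-kinase complex start the membrane, and ATG2, ATG9 and WIPI proteins supply and position lipid. ATG7, ATG3, ATG10 and the ATG12-ATG5-ATG16L1 complex then attach ATG8 proteins (LC3 and GABARAP) to it, and cargo receptors such as SQSTM1 (p62) and optineurin bind ubiquitinated cargo to the ATG8 coat. In microglia the pathway and its non-canonical branch on phagosomes handle engulfed material. RNA levels report neither protein amounts nor the flux of cargo through the pathway.

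Values are the authors' normalised counts (gene-level reads scaled by library, with small further differences between genes), whose sums ran from 32641500 to 44162200 per library. Depth estimated from the step between low values ran from 21917700 to 78590300 reads. By this estimate all 4 male controls were deeper than all 4 males on PLX3397 (two-sided exact permutation p = 0.0286, the smallest that 4 against 4 allows, adjusted p = 0.0571 over 12 tests), and also deeper than all 4 female controls (42126000 to 78590300 against 29446500 to 38724100 reads, same p and adjusted p). On PLX3397 the library sums were higher in females, at 41574200 to 42268100 against 32641500 to 39584100 in males (same p and adjusted p). The share of mitochondrial transcripts was 0.312% ± 0.0153 (SD, n = 4) in male controls and 0.625% ± 0.0387 in males on PLX3397, and 0.307% ± 0.0361 and 0.395% ± 0.0449 in females (exact permutation p = 0.0286 in each sex, adjusted p = 0.0571). The same p and adjusted p hold for the mitochondrial share of treated females against treated males. All 10 microglial markers were detected in every group. Their summed level ran from 2142850 to 2604650 on control chow, from 1037790 to 1457270 in males on PLX3397 and from 1652680 to 1873330 in females on PLX3397. The summed level of 12 neutrophil markers lay between 531 and 3668 in male controls and between 10696 and 75471 in males on PLX3397. In females it lay between 203 and 271 on control chow and between 1046 and 3493 on PLX3397. Of these 12 markers, 8 were at 0 in all 4 female controls. Border-associated macrophage markers (9) summed to 2323 to 3364 in male controls and 708 to 1137 in males on PLX3397, where 3 were at 0 in all 4 libraries. In females the same 9 summed to 1886 to 3956 on control chow and 1023 to 1520 on PLX3397. Monocyte markers (5) summed to 346 to 674 in male controls and 685 to 5863 in males on PLX3397, which do not overlap, and to 399 to 532 and 237 to 613 in females, which do. Endothelial markers (4, of which 2 were at 0 in all 4 libraries of each control group) summed to 925 to 1684 in male controls and 352 to 564 in males on PLX3397, and to 1280 to 1445 and 507 to 807 in females, with no overlap in either sex. Astrocyte markers (6) summed to 9640 to 11632 in male controls and 8449 to 11301 in males on PLX3397, and to 8992 to 11132 and 7807 to 11404 in females. Oligodendrocyte markers (6) summed to 6824 to 7680 and 6397 to 8843 in males, and to 6780 to 8826 and 6769 to 8075 in females. Neuron markers (6) summed to 266 to 429 and 313 to 597 in males, and to 210 to 566 and 220 to 467 in females. The part of these depth, RNA and marker differences in the results below was not tested, and in a bulk library fewer cells of a type and less RNA per cell cannot be told apart.

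On control chow the 40 genes spanned a wide range of levels per kilobase of exon. The highest were Sqstm1, at 4805 ± 161 normalised counts per kilobase in males and 4902 ± 495 in females (SD, n = 4), and Gabarap, an ATG8 protein, at 4774 ± 376 and 4899 ± 803. These 2 genes do not differ in level beyond their spread. Gabarapl2 followed at 2161 ± 102 in males, and then Atg101, a ULK complex subunit, at 1910 ± 360. The lowest in males were Epg5, Wipi1, Optn and Atg2b, with Optn at 107 ± 43.6 in males and 62.5 ± 19.7 in females. Within paralogous pairs the less abundant partner was Ulk1, at 319 ± 25.9 against 1520 ± 90.7 for Ulk2, and Atg16l2, at 146 ± 17.9 against 767 ± 106 for Atg16l1, all in male controls. Exon lengths are those of an annotation of another release than the one the counts were made with, so these levels are approximate.

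**Figure D1:**
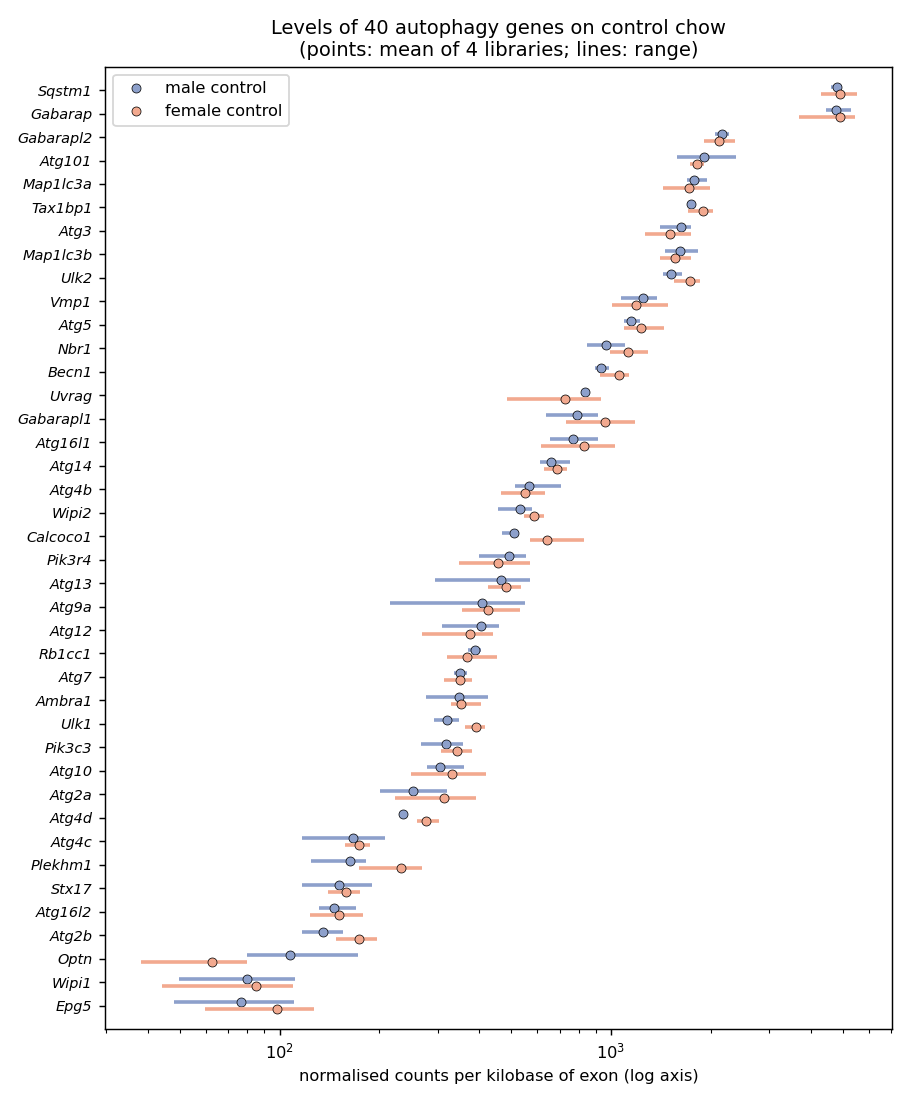
Levels of the 40 autophagy genes on control chow, as normalised counts per kilobase of exon on a log axis, with points for the mean of 4 libraries and lines for the range, in males and females. Sqstm1 (4805 in males) and Gabarap (4774) stand at the top, and Epg5, Wipi1 and Optn at the bottom.

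PLX3397 against control chow in males asks which of these genes differ in the cells that remained. Of the 40 genes, 5 passed the test (limma on log2(value + 1), Benjamini-Hochberg adjusted p under 0.05), which is 12.5% of them against 11.7% of all genes tested, so the share is near the background. Atg16l2 and Optn rose (2 of 40, with 4.16% of all genes higher), and Ulk2, Atg3 and Tax1bp1 fell (3 of 40, with 7.52% lower). In females 4 of 40 passed, 10% against a background of 5.34%: Atg16l2, Optn and Sqstm1 rose, and Ulk2 fell, where 2.67% of all genes were higher and 2.67% lower. At an unadjusted p under 0.05, 11 of the 40 differed in males and 11 in females, beside 23.8% and 17.1% of all genes. Groups did not overlap for 8 of the 40 in males and 6 in females, beside 17.6% and 10.4% of all genes. The median log2 fold change over the 40 genes was 0.15 in males and -0.02 in females, beside 0.02 and -0.00 over all genes tested. Fold changes are on the log2(value + 1) scale throughout. For 36 of the 40 genes in each sex the 95% interval of the change lay within 2-fold either way, beside 48.6% of all genes in males and 52.1% in females. The 40 genes had smaller SEs than all genes tested, with a median of 0.165 against 0.292 in each sex. Shares called and shares within 2-fold, here and below, are not matched for this.

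**Figure D2:**
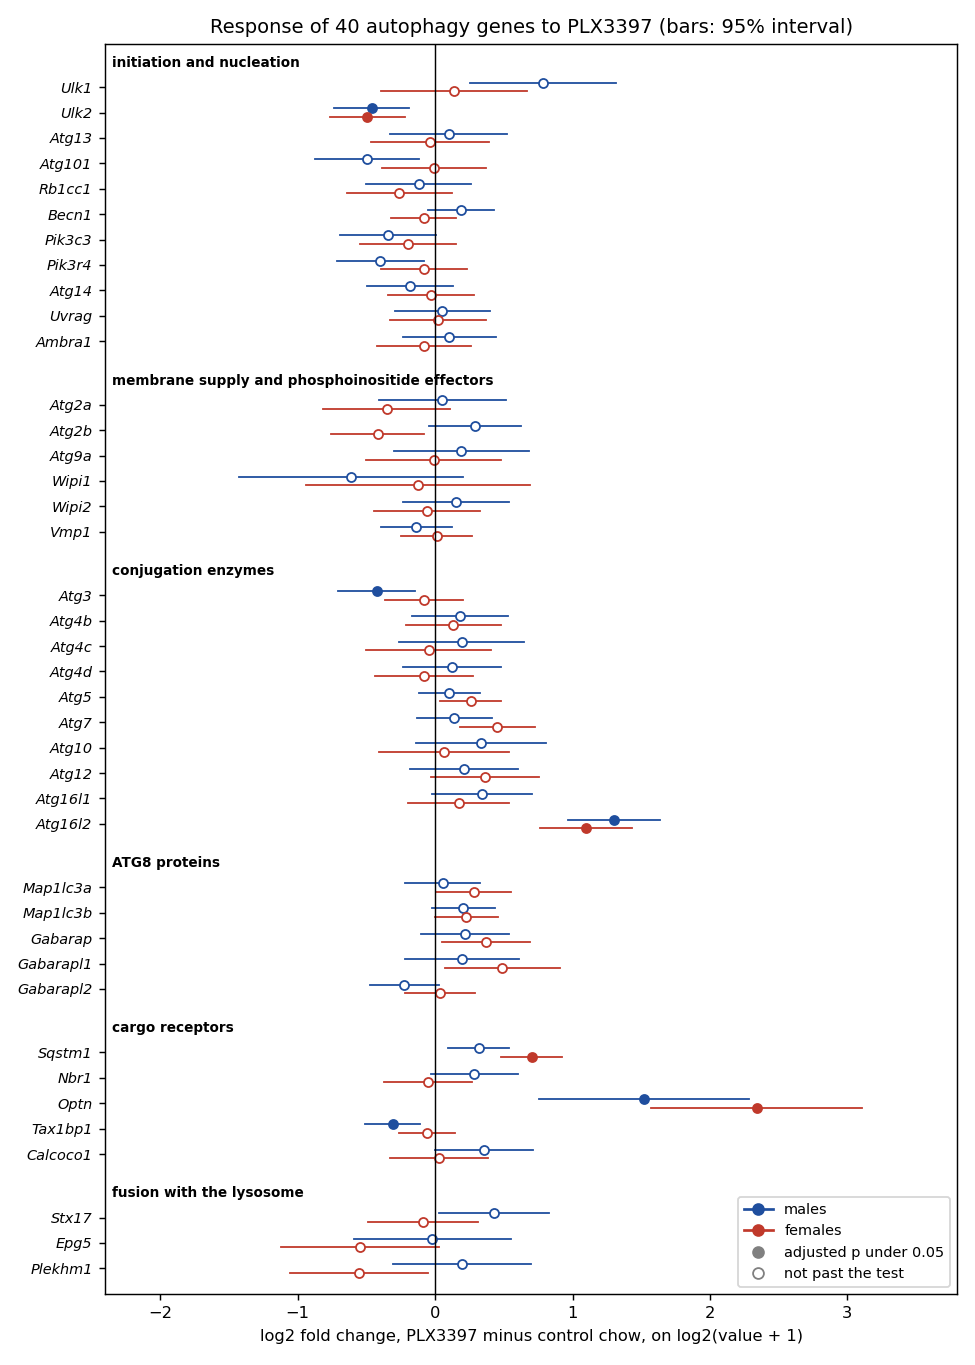
Log2 fold change of each of the 40 genes on PLX3397 against control chow in males (blue) and females (red), with 95% intervals from limma and filled points where the adjusted p is under 0.05. Atg16l2 and Optn lie to the right of 0 in both sexes and Ulk2 to the left, while most intervals of the other genes span 0.

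Promoter sequences are shown for the 4 genes that passed the test in females, 3 of which also passed in males. Atg3 and Tax1bp1, which fell in males, are not among them. Whether promoter make-up bears on the direction of a response was not tested. The sequences are from RefSeq on build GRCm38.p6, run from 250 bases before to 50 after the start, and are read 5′ to 3′ on the gene's own strand. Of the 40 genes 33 had an entry.
Atg16l2 (chr7:101302039-101302338, minus strand): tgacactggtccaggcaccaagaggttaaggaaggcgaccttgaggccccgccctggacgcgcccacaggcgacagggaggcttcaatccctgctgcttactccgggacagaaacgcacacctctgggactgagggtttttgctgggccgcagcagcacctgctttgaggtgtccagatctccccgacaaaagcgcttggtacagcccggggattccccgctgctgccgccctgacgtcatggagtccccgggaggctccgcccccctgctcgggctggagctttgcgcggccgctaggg
Optn (chr2:5064068-5064367, minus strand): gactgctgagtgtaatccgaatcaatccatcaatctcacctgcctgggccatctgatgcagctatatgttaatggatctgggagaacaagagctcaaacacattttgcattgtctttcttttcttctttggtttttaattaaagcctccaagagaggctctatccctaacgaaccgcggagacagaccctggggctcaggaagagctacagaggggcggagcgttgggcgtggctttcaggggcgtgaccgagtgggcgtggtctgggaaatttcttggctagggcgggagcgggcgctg
Sqstm1 (chr11:50210771-50211070, minus strand): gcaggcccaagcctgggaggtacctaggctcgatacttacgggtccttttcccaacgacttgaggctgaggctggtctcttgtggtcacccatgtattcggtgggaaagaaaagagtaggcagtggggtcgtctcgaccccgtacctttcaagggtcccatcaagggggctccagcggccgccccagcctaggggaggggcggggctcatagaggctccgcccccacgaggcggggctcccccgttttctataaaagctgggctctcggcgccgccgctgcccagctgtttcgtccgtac
Ulk2 (chr11:61855043-61855342, minus strand): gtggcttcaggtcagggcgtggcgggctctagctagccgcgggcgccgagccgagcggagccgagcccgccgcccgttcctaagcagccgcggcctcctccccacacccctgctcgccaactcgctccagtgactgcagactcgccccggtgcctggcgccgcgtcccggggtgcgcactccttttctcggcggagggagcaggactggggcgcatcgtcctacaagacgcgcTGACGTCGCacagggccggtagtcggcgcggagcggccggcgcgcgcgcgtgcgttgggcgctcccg
Capitals mark a match, on either strand, to 1 of 3 motifs searched: CACGTG (the core of the site of the MiT/TFE factors), TGACNNNGC (the antioxidant response element of NRF2) and AGAGGAAG (a PU.1 site). Of the 4 promoters the one of Ulk2 holds a match, TGACGTCGC, which starts 17 bases before the start. The Ulk2 promoter also has 45 CpG dinucleotides and a GC content of 74.7%. The values were 20 and 65.7% for Atg16l2, 20 and 63.3% for Sqstm1 and 13 and 52.7% for Optn. Medians were 7 and 52.7% over all promoters of 27025 genes, some of which have more than 1. CACGTG occurred in a promoter of 4 of the 33 genes (Atg3, Atg5, Atg7 and Atg14), or 12.1%. Among all genes with a promoter of that length the share was 8.09%. TGACNNNGC occurred in 5 of 33 (Atg13, Map1lc3b, Tax1bp1, Ulk2 and Vmp1), or 15.2% against 14.0%, and AGAGGAAG in 3 of 33 (Atg3, Atg101 and Vmp1), or 9.09% against 5.22%. These matches describe the letters in this window and say nothing of binding.

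Among the 11 initiation and nucleation genes, 1 passed the test in each sex, or 9.09% against 11.7% of all genes in males and 5.34% in females. This gene is Ulk2, which encodes a kinase of the complex that starts autophagosome formation. Ulk2 stood at 9410, 8227, 8841 and 8435 normalised counts in male controls (replicates 1 to 4) and at 7327, 6614, 6525 and 5087 in males on PLX3397. In females it stood at 8876, 10643, 10025 and 10117 on control chow and at 5932, 7847, 6062 and 8615 on PLX3397. The groups do not overlap in either sex, and every treated library was below every control of its sex. The log2 fold change was -0.46 ± 0.129 (SE, adjusted p = 0.0277 by limma) in males and -0.49 ± 0.129 (adjusted p = 0.0319) in females. The call was lost under several alternatives in each sex. With library sums set equal, adjusted p by limma was 0.214 in males and 0.0547 in females, and under quantile normalisation 0.243 and 0.0688. Leaving out male control replicate 1 or female PLX3397 replicate 1 also ended it (adjusted p = 0.0822 in males and 0.108 in females), as did leaving out some other libraries.

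Ulk1, the paralogous kinase, did not pass the test. It stood at 1746, 1820, 1527 and 1589 in male controls and at 3197, 2414, 3613 and 2437 in males on PLX3397. The male groups do not overlap, with a log2 difference of 0.78 ± 0.252 (adjusted p = 0.0549), and 8 of 27 alternatives put it past the threshold. All 16 libraries share 1 estimate of the spread. At the same log2 difference, adjusted p by limma was 0.00956 with the male groups fitted alone. Without female PLX3397 replicate 3 it was 0.00587. Libraries of females stood at 1897, 2186, 2105 and 1993 on control chow and at 1988, 3286, 1172 and 3332 on PLX3397, where the treated libraries lie on both sides of the controls. The ratio of Ulk1 to Ulk2 counts within a library was 0.173 to 0.221 in male controls and 0.365 to 0.554 in males on PLX3397. A factor common to a library does not move this ratio, but the small further differences between genes in the authors' scaling can. In females the ratio was 0.197 to 0.214 on control chow and 0.193 to 0.419 on PLX3397, which overlap. This ratio was chosen after the values were seen and was not tested.

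The other subunits of the ULK complex, Atg13, Atg101 and Rb1cc1 (FIP200), did not pass. Atg101 had a log2 difference of -0.49 ± 0.178 in males (adjusted p = 0.0889) and -0.01 in females. Neither did the lipid kinase complex pass, which consists of Pik3c3 (the catalytic subunit), Pik3r4, Becn1, and Atg14 or Uvrag, nor its regulator Ambra1. Their log2 differences ran from -0.40 (Pik3r4) to 0.19 (Becn1) in males and from -0.19 (Pik3c3) to 0.02 (Uvrag) in females. The median over the 11 genes was -0.12 in males and -0.08 in females.

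Membrane supply was measured through 6 genes, none of which passed in either sex. They are Atg2a and Atg2b (lipid transfer proteins), Atg9a (the scramblase), Wipi1 and Wipi2 (readers of phosphatidylinositol 3-phosphate) and Vmp1 (a scramblase of the endoplasmic reticulum). In males the log2 differences ran from -0.61 ± 0.385 for Wipi1, the least abundant of the 6, to 0.29 for Atg2b. In females Atg2b had the value furthest from 0, -0.42 ± 0.158 (adjusted p = 0.165). By unadjusted p under 0.05, 0 of these 6 genes in males and 1 in females differed, beside 23.8% and 17.1% of all genes.

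Of 10 conjugation genes, 2 passed in males, or 20% against 11.7% of all genes, and 1 in females, or 10% against 5.34%. Atg16l2 rose in both sexes and Atg3 fell in males. ATG16L2 is a paralogue of ATG16L1, the protein that directs conjugation of ATG8 to the membrane. Atg16l2 stood at 847, 969, 1099 and 866 in male controls and at 2836, 1963, 2538 and 2034 in males on PLX3397. In females it stood at 825, 800.0, 1156 and 1127 on control chow and at 2083, 2040.5, 1848 and 2298 on PLX3397. All 8 treated libraries exceeded all 8 controls. The log2 fold change was 1.30 ± 0.158 in males (adjusted p = 4.17e-05) and 1.10 ± 0.158 in females (adjusted p = 0.000428). It ran from 1.20 to 1.46 in males and 1.01 to 1.18 in females over 27 alternatives. Those that leave out a library of the other sex can change the p-value but not the fold change. Without male PLX3397 replicate 3, the library with the highest neutrophil marker sum, it was 1.26 (adjusted p = 0.000272 by limma). Male PLX3397 replicates 1, 2 and 4 still had neutrophil sums of 10696, 12114 and 18193, above every male control. The part of neutrophil RNA in the rise was therefore not tested.

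Atg16l1 itself did not pass, with log2 differences of 0.34 ± 0.173 (adjusted p = 0.247) in males and 0.17 ± 0.173 (adjusted p = 0.705) in females. The ratio of Atg16l2 to Atg16l1 counts was 0.292 to 0.465 in male controls and 0.682 to 0.826 in males on PLX3397. In females the ratio was 0.245 to 0.590 and 0.572 to 0.788, which overlap. This ratio too was chosen after the values were seen and was not tested. Of the other pairs taken, Map1lc3a to Map1lc3b was also separated in males, at 0.2288 to 0.2495 on control chow and 0.2073 to 0.222 on PLX3397. It overlapped in females. The ratios of Atg2a to Atg2b, Wipi1 to Wipi2 and Gabarapl1 to Gabarap overlapped in both sexes. Per kilobase, Atg16l2 remained the lower of the pair on PLX3397, at 363 ± 64.5 against 977 for Atg16l1 in males and 320 ± 28.6 against 911 in females. Its rank among the 40 genes moved from 36 to 29 in males and from 37 to 30 in females.

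Atg3 encodes the E2-like enzyme that transfers ATG8 to phosphatidylethanolamine. It stood at 3403, 3465, 2897 and 3579 in male controls and at 2555, 2047, 2633 and 2743 in males on PLX3397. The 2 male groups do not overlap, and the log2 fold change was -0.42 ± 0.132 (adjusted p = 0.0483). Libraries of females stood at 3584, 2608, 2956 and 3214 on control chow and at 2735, 2692, 2695 and 3576 on PLX3397. These groups overlap, with a log2 difference of -0.08 (adjusted p = 0.836). The male call lies just inside the threshold and was lost with library sums set equal (adjusted p = 0.174) and without male PLX3397 replicate 2 (adjusted p = 0.153).

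The remaining 7 conjugation genes did not pass: Atg4b, Atg4c and Atg4d (proteases that prime and release ATG8), Atg5, Atg12, Atg10 (the E2-like enzyme for ATG12) and Atg7. Atg7, the E1-like enzyme of both conjugation systems, came closest, with 1432 ± 121 on control chow and 1966 ± 258 on PLX3397 in females (SD, n = 4). The female groups of Atg7 do not overlap, and the log2 difference was 0.45 ± 0.129 (adjusted p = 0.0518). In males it was 0.14 (adjusted p = 0.567).

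None of the 5 ATG8 genes, the coat to which receptors bind, passed the test in either sex. Map1lc3a, Map1lc3b, Gabarap, Gabarapl1 and Gabarapl2 had log2 differences from -0.22 to 0.22 in males and from 0.03 to 0.49 in females. The largest value, in females, was that of Gabarapl1 at 0.49 ± 0.197 (adjusted p = 0.199). Gabarap was at 0.37 ± 0.152 in females (adjusted p = 0.212), and its female groups do not overlap. With library sums set equal, Map1lc3b (0.36, adjusted p = 0.0151) and Gabarap (0.38, adjusted p = 0.0487) passed in males, as did Map1lc3b under quantile normalisation (0.42, adjusted p = 0.0048). Processed copies of ATG8 genes exist in the genome, and how shared reads were counted is not given in the sources used here.

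The remaining calls were in 3 of the 5 cargo receptors: 2 of 5 passed in males and 2 of 5 in females, beside 11.7% and 5.34% of all genes. Optn encodes optineurin, a ubiquitin-binding receptor of damaged mitochondria and bacteria. It stood at 230, 234, 451 and 208 in male controls and at 969, 813, 589 and 743 in males on PLX3397. In females it stood at 209, 144, 99.9 and 201 on control chow and at 1440, 428, 1128 and 579 on PLX3397. The groups do not overlap in either sex, and the treated females split into a higher and a lower pair. The log2 fold change was 1.52 ± 0.361 in males (adjusted p = 0.0103) and 2.34 ± 0.361 in females (adjusted p = 0.000751). The call held under all 27 alternatives in each sex, with a highest adjusted p of 0.0413 in males, reached without male control replicate 4 and male PLX3397 replicate 3. Per kilobase Optn moved from 107 to 298 in males and from 62.5 to 342 in females, and from rank 38 to 31 and from rank 40 to 28 among the 40 genes.

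Sqstm1 encodes p62, a receptor that is itself degraded by autophagy and is also a transcriptional target of NRF2. It stood at 13022, 14060, 13792 and 13389 in male controls and at 19358, 15070, 17258 and 16182 in males on PLX3397. Libraries of females stood at 15558, 12146, 13944 and 13704 on control chow and at 26432, 24232, 20476 and 19297 on PLX3397. The groups do not overlap in either sex. The log2 fold change in females was 0.70 ± 0.105 (adjusted p = 0.000605), with a range of 0.62 to 0.77 over 27 alternatives, all past the threshold. In males the log2 difference was 0.32 ± 0.105 (adjusted p = 0.0638), which did not pass, and 7 of 27 alternatives put it past. Of the exon bases of Sqstm1, 20.5% overlap Mrnip on the opposite strand, whose own values ran from 85.0 to 329, and whether counting used the strand is not given in the sources used here.

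Tax1bp1, a receptor that also restrains inflammatory signalling, fell in males. It stood at 5841, 5588, 5721 and 5683 in male controls and at 4498, 3994, 5291 and 4729 in males on PLX3397. In females it stood at 6676, 5593, 6558 and 6070.2 on control chow and at 6285, 5840.0, 5400 and 6343 on PLX3397. The male groups do not overlap and the female groups do. The log2 fold change was -0.31 ± 0.0951 in males (adjusted p = 0.0443), and the log2 difference was -0.06 in females (adjusted p = 0.827). The male call was lost under several alternatives, among them library sums set equal (adjusted p = 0.314 by limma) and male PLX3397 replicate 2 left out (adjusted p = 0.137). Nbr1, which acts with p62, and Calcoco1, a receptor of the endoplasmic reticulum, did not pass, with 0.29 and 0.36 in males and -0.05 and 0.03 in females.

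**Figure D3:**
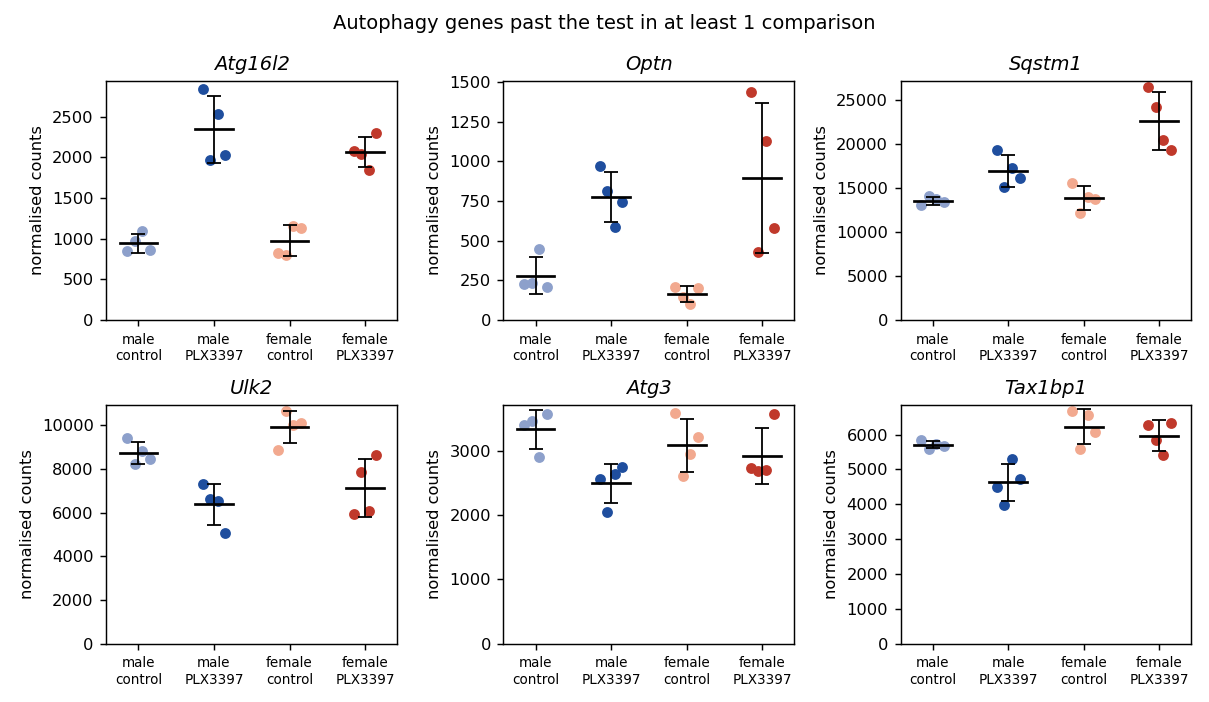
Normalised counts of the 6 autophagy genes past the test in at least 1 comparison, with 1 point per library, lines for the mean and bars for the SD (n = 4). Treated libraries of Atg16l2 and Optn lie above the controls of their sex and those of Ulk2 below, while Atg3 and Tax1bp1 are separated in males and overlap in females.

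Fusion with the lysosome was measured through Stx17 (the autophagosomal SNARE), Epg5 (a tether) and Plekhm1 (an adaptor between RAB7, the HOPS complex and ATG8), none of which passed. In males the log2 differences were 0.43 ± 0.189 for Stx17 (adjusted p = 0.174), 0.20 for Plekhm1 and -0.02 for Epg5. In females they were -0.09, -0.56 and -0.55.

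Scaling bears on the direction of the small changes. With library sums set equal, the median log2 change of all genes in males moved by 0.16 upward, and 7 of the 40 genes were then higher and 0 lower, in place of 2 higher and 3 lower. Under quantile normalisation 7 were higher and 0 lower as well, and under upper-quartile scaling 4 were higher and 3 lower. Over all genes the same step changed 815 higher and 1474 lower into 1347 and 916 (equal sums) or 1040 and 1188 (quantile). In females 3 genes were higher under each of these scalings, and Ulk2 was called lower under upper-quartile scaling alone. Each of the 11 calls of these genes over the 5 comparisons kept its sign under every alternative run, and 5 stayed past the threshold in all of them: Atg16l2 and Optn in both sexes and Sqstm1 in females.

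The difference between the female and the male response was then tested directly. None of the 40 genes passed, and the background was 0% of 19594 genes. By unadjusted p under 0.05, 3 of the 40 and 10.3% of all genes differed. Those 3 are Plekhm1 (-0.75 ± 0.335 on the log2 scale, females minus males, adjusted p = 0.45), Atg2b (-0.71 ± 0.224, adjusted p = 0.291) and Sqstm1 (0.39 ± 0.149, adjusted p = 0.382). For Sqstm1 the 95% interval of the difference ran from 0.07 to 0.70. For Ulk2, with a fall in both sexes, the difference was -0.03 ± 0.183 (95% interval -0.42 to 0.35), and for Atg16l2 it was -0.20 (adjusted p = 0.81). For Optn it was 0.82 (adjusted p = 0.618). The interval lay within 2-fold either way for 31 of the 40 genes, beside 38.9% of all genes, so a difference between the sexes of that size lay outside the interval for those 31.

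On control chow females and males differed in 0 of the 40 genes, with a background of 0.0663% (13 genes), and 1 of 40 had an unadjusted p under 0.05, beside 5.19% of all genes. The groups did not overlap for 3 of 40 (Ulk1, Atg4d and Calcoco1), beside 3.55% of all genes. The 95% interval lay within 2-fold either way for 38 of 40, beside 56.8% of all genes. On PLX3397, 2 of 40 passed, or 5% against 5.43% of all genes, which is near the background. The background was 4.28% higher and 1.15% lower in females. An unadjusted p under 0.05 was found for 8 of 40, beside 22.0% of all genes, and groups that do not overlap for 1 of 40, beside 12.1%. Both genes that passed were cargo receptors with higher values in females: Sqstm1 by 0.41 ± 0.105 (adjusted p = 0.0362) and Tax1bp1 by 0.37 ± 0.0951 (adjusted p = 0.0352). Each Tax1bp1 value in treated females (5400 to 6343) exceeded each in treated males (3994 to 5291), and the Sqstm1 groups overlap through the lowest female value, 19297, and the highest male value, 19358. With library sums set equal both calls were lost (adjusted p = 0.208 and 0.266), and the split over all genes changed from 838 higher and 226 lower in females to 195 and 374, or to 246 and 221 under quantile normalisation and 435 and 236 under upper-quartile scaling. Both calls also ended without male PLX3397 replicate 2 (adjusted p = 0.117 and 0.114). This comparison and the PLX3397 responses share libraries, so their values are not independent of each other.

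The genes that govern the pathway were counted in 5 further lists, drawn up with earlier results of these data known. Their shares called are therefore descriptive, and setting them beside the shares of all genes tests nothing. Of 29 tested genes of mTORC1, AMPK and nutrient sensing, 6 rose and 2 fell in males, and 1 rose and 1 fell in females. That is 27.6% against 11.7% of all genes in males and 6.90% against 5.34% in females, the latter near the background. Prkab1, a regulatory subunit of AMPK, the kinase that senses low energy, fell in both sexes, from 9002 ± 495 to 3548 ± 444 in males and from 8956 ± 706 to 3482 ± 250 in females (SD, n = 4). Its log2 fold changes were -1.35 ± 0.0989 (adjusted p = 3.24e-07) and -1.36 ± 0.0989 (adjusted p = 6.19e-07). Fnip2, a partner of folliculin at the lysosome, rose from 1299 ± 337 to 3422 ± 414 in males and from 1637 ± 169 to 2914 ± 601 in females, by 1.43 ± 0.182 (adjusted p = 6.19e-05) and 0.81 ± 0.182 (adjusted p = 0.0124). Its paralogue Fnip1 rose by 0.75 in males (adjusted p = 0.00139), as did Flcn, folliculin itself, by 0.60 (adjusted p = 0.00456). In females the values were 0.36 and 0.34 and did not pass.

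Among 8 transcription factors of autophagy genes, 2 rose and 1 fell in males and 2 rose in females, which is 37.5% against 11.7% of all genes and 25% against 5.34%. Mitf, of the MiT/TFE family that drives lysosomal and autophagy genes, stood at 815, 701, 596 and 811 in male controls and at 1534, 2197, 1736 and 1796 in males on PLX3397. Libraries of females stood at 819, 582, 642 and 873 on control chow and at 1396, 1027, 1236 and 1270.4 on PLX3397. The groups do not overlap in either sex, and the log2 fold change was 1.31 ± 0.166 in males (adjusted p = 5.83e-05) and 0.77 ± 0.166 in females (adjusted p = 0.00979). The difference between these responses was -0.54 and did not pass (adjusted p = 0.435). Tfec, of the same family, rose in males from values of 1.37, 7.58, 0 and 3.54 to 265, 121, 40.2 and 135 (adjusted p = 0.00367). Female values were 22.6, 69.5, 0 and 2.09 on control chow and 68.2, 145, 184 and 50.1 on PLX3397, with a log2 difference of 3.55 ± 1.07 that did not pass (adjusted p = 0.0684). The difference between these responses, -1.68 ± 1.52, did not pass either (adjusted p = 0.756). Tfeb did not pass, at 0.20 in males and 0.18 in females. Tfe3 fell in males by 0.40 on the log2 scale (adjusted p = 0.0114), a call lost with library sums set equal. Nfe2l2, which encodes NRF2, rose in females by 0.54 ± 0.108 (adjusted p = 0.00573) and was at 0.31 ± 0.108 in males (adjusted p = 0.0734).

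Of 16 genes of tethering and fusion, 1 rose and 3 fell in males, and 1 rose and 1 fell in females, which is 25% against 11.7% of all genes and 12.5% against 5.34%. Ykt6, a SNARE that acts beside Stx17, fell from 5397 ± 365 to 2654 ± 438 in males and from 6043 ± 318 to 3919 ± 417 in females, with log2 fold changes of -1.04 ± 0.115 (adjusted p = 1.78e-05) and -0.63 ± 0.115 (adjusted p = 0.00306). Plekhm2, an adaptor that links lysosomes to kinesin, rose by 1.29 ± 0.205 in males (adjusted p = 0.000479) and 1.24 ± 0.205 in females (adjusted p = 0.00131). Stx7, a late endosomal SNARE, and Arl8b, a lysosomal GTPase, fell in males, and both calls were lost under quantile normalisation.

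Other core and accessory genes (15) had 2 rises and 2 falls in males and 1 rise in females. That is 26.7% against 11.7% of all genes in males and 6.67% against 5.34% in females, the latter near the background. Dapk1, a kinase that acts on beclin 1, rose by 1.10 ± 0.164 in males (adjusted p = 0.000259) and 0.80 ± 0.164 in females (adjusted p = 0.00706). In males Tecpr1 rose by 0.87 (adjusted p = 0.00652), and Wdr45b and Tmem41b fell. Selective autophagy receptors (15) had 1 rise, Bnip3, and 2 falls, Rtn3 and Retreg1, in males and 0 calls in females, which is 20% against 11.7% of all genes and 0% against 5.34%. Rtn3, a receptor for tubules of the endoplasmic reticulum, fell by 0.55 on the log2 scale in males (adjusted p = 0.00602), under every alternative. The difference between the sexes in response passed for 0 genes of these 5 lists. On PLX3397, females and males differed in 4 of 29 nutrient-sensing genes (13.8% against 5.43% of all genes), 0 of 8 transcription factors, 2 of 15 other core genes (13.3%), 2 of 15 selective receptors (13.3%) and 3 of 16 tethering and fusion genes (18.8%). Deptor, an inhibitor of mTOR, and Prkaa2, a catalytic subunit of AMPK, were lower in females. Prkaa2 lay near the floor, at 0 in every treated female and at 48.8, 13.9, 40.1 and 102 in treated males. Libraries at 0 occurred in both control groups as well. The other 9 were higher in females: Rheb, Sesn2, Wdr45b, Tmem41b, Tollip, Rtn3, Ykt6, Stx7 and Arl8b. Each of these 11 calls was lost under at least 1 alternative. The lists were drawn up with earlier results of these data known.

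**Figure D4:**
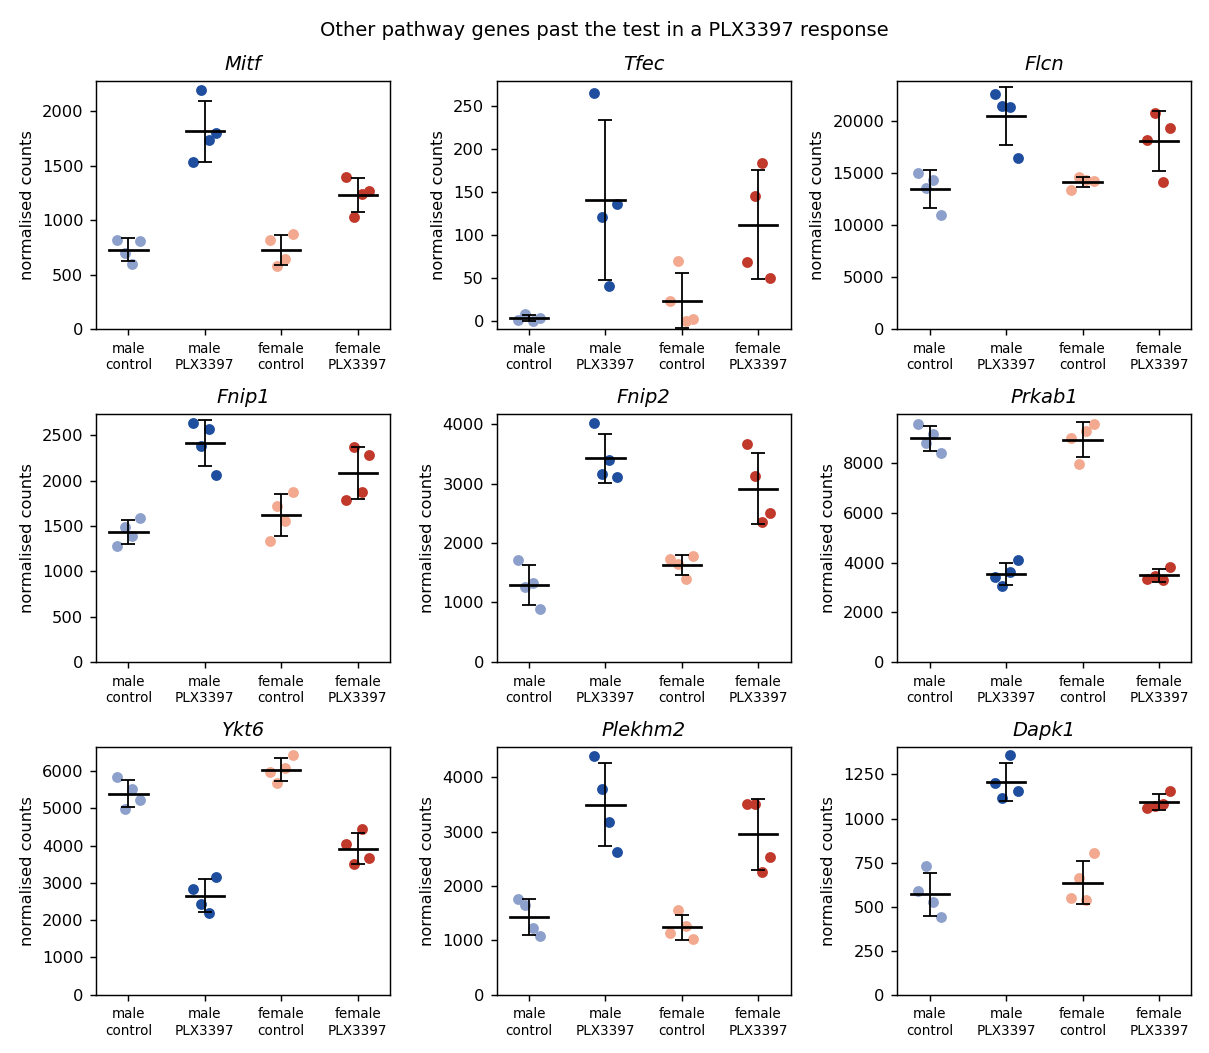
Normalised counts of 9 other genes of the pathway past the test in a PLX3397 response, with 1 point per library, lines for the mean and bars for the SD (n = 4). Prkab1 and Ykt6 are lower and Fnip2, Mitf, Plekhm2 and Dapk1 higher in every treated library than in any control of the same sex, and Tfec is near 0 in male controls.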

How the data were processed

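RNA of sorted microglia was measured in 16 libraries (SMARTer cDNA from 500 pg of RNA, 150 pg of cDNA into Nextera XT, per the labels' protocols). The deposited signal holds gene-level read counts that the authors scaled by library, with small further differences between genes. The formula is not given in the sources used here, whole reads were not recovered, and count models were therefore not used. The submitters' processing notes name STAR 2.7.9a, Salmon 1.5.2, featureCounts 2.0.1, Subread, bcl2fastq 2.19.1 and GRCm39, without their roles.

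The test was limma 3.58.1 (R 4.3.3) on log2(value + 1), for the 19594 genes that reach 10 in 4 or more libraries: two-sided, with a trend, all 16 libraries in 1 fit and a mean for each group, Benjamini-Hochberg over all genes tested, threshold 0.05. No pair of libraries was identical. Depth and mitochondrial share were compared by exact permutation, two-sided. Plots used Python 3.11.15 and matplotlib 3.10.9.

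The members and lists were chosen with earlier results of these data known. Every member is named, with values by library for those past the test, and up to 4 genes of each further list by smallest p. Exon lengths and overlaps came from GENCODE on GRCm38 and promoters from RefSeq on GRCm38.p6. Alternatives were other pseudocounts, filters and scalings, array weights, a replicate block, the groups compared alone, each library left out, and male control replicate 4 with male PLX3397 replicate 3 left out. The ratios within paralogous pairs were added after seeing the data.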

Additional observations from a re-analysis of the deposited data

Results flagged for a closer look

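For the 6 autophagy genes past the test in any comparison, 24 groups of 4 libraries were checked for a library far from the rest, which chance gives in about 1 of 20 groups, and 2 such libraries were found. Atg3 in females on PLX3397 stood at 3576 in replicate 4, while the other 3 libraries lay between 2692 and 2735. Optn in male controls stood at 451 in replicate 3, while the other 3 lay between 208 and 234.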

How the results depend on the processing

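All 11 calls of autophagy genes kept their direction under 27 alternatives each, 5 kept their side of the threshold and 6 lost it under at least 1. Alternatives that leave out a library of a group not compared cannot change a direction. Without male control replicate 4 and male PLX3397 replicate 3, the genes called in males numbered 1517 (2289 as reported), those of the 40 numbered 3 (5 as reported), the genes differing in response numbered 2 (0 as reported), and on PLX3397 the sexes differed in 339 genes (1064 as reported) and in 1 of the 40 (2 as reported). Of the 40, males had 3 calls with no filter and 8 with array weights. At a pseudocount of 5, 1 gene differed in response. On PLX3397 the sexes differed in 669 genes with no filter, 671 under upper-quartile scaling, 569 with equal sums, 467 under quantile normalisation and 47 in a fit to these groups alone, each with 0 of the 40. Each library left out in turn gave 2 to 7 of the 40 in males (2 without male control replicate 1), 0 to 6 genes differing in response, 11 to 20 between the sexes on control chow (20 without male control replicate 1), and 324 to 1232 on PLX3397 with 0 to 2 of the 40. The lowest, 324, was without male PLX3397 replicate 2; it was 462 without male PLX3397 replicate 3, 680 without female PLX3397 replicate 2 and 486 without female PLX3397 replicate 3. The cause of these changes was not tested. Replicate numbers do not pair the libraries: same-numbered libraries correlated at -0.04 to 0.02, and 0 libraries matched their own number best in every other group. With the replicate block, 3 of the 40 were called in males and 3 in females, and Ulk2 (adjusted p = 0.0518 in males and 0.0632 in females) and Tax1bp1 in males (adjusted p = 0.0508) were lost. The fit to the groups alone was not run for the difference between responses. Precision is limited by 4 libraries a group: the median SE was 0.165 over the 40 genes and 0.292 over all genes.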
